A study of Mus musculus with 4 samples.

Results

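The genes described here are 10 members of the leukaemia inhibitory factor (LIF), gp130 and STAT3 pathway. They were taken from the deposited expression table by symbol, as the listed ligands, receptors, kinases, transcription factor and feedback inhibitor. All 10 were found among its 22558 genes, and all 10 were among the 14194 with a mean of at least 1 FPKM (fragments scaled to transcript length and sequencing depth) over the conditions. RNA from eyes of 6-week-old mice was sequenced in 4 conditions, namely a control kept out of the light treatment and light-exposed groups collected 3 h, 24 h or 7 days later. Every group, the control included, carried the genotype Abca4-/-Rdh8-/-, which removes a photoreceptor transporter and a retinol dehydrogenase that together clear all-trans-retinal. Each condition was labelled as eyes of 3 mice but has 1 value per gene, so no difference below has a replicate check and none was tested. The comparison with the control addresses which transcripts change after light.

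In this pathway a cytokine such as LIF brings together gp130, the shared signalling receptor encoded by Il6st, and a partner receptor such as LIFR or OSMR. Janus kinases bound to the receptors then phosphorylate STAT3, which moves to the nucleus and activates genes, among them Socs3, whose product blocks the receptor and kinases in turn. In the injured mouse retina, LIF is known as a signal made by Müller glia that helps photoreceptors survive, and STAT3 activity is a known part of the glial response.

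The tissue is labelled as whole eye, while the extraction protocol describes removal of retinas. Lens genes took 20.8% to 24.8% of all FPKM, so lens RNA was present in every condition. The Y-linked gene Ddx3y was at 6.59 FPKM at 7 days and listed at 0 in the control and at 3 h. Xist, a transcript of female cells, was at 47.2, 53.8, 53.8 and 37.1 FPKM in the order of the conditions. The 7-day value thus held RNA of both sexes, and sex composition differs together with time in the 7-day comparisons. An approximate depth came from olfactory receptor genes above 0 in a single condition. Their median value, taken as 1 fragment, was 0.0448 FPKM without light, then 0.0467 after 3 h, 0.0349 after 24 h and 0.0255 after 7 days. The counting errors given below use that scale, cover counting only, and are likely too wide for transcripts longer than those short genes.

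Sequence upstream of the members that passed the fold threshold is shown because it is where STAT and AP-1 factors could bind. The windows are RefSeq promoters of assembly GRCm38.p6, which is not the mm9 build of the expression values. Each is shown from its far end up to the gene start or the first base that a GENCODE exon covers. Capitals mark matches to the STAT motif TTCNNNGAA or the AP-1 motif TGANTCA, each of which reads the same on both strands.
Lif, chr11:4257318-4257556, plus strand: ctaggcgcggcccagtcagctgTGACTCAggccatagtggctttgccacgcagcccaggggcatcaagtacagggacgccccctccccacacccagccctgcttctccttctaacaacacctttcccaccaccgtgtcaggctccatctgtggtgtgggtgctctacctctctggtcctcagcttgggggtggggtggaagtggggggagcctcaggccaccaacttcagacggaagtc
Stat3, chr11:100939541-100939790, minus strand: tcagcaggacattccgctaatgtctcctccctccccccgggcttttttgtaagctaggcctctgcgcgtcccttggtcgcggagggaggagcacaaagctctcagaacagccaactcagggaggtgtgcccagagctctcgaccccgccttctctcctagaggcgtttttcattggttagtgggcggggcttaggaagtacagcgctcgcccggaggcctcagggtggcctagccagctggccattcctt
Socs3, chr11:117969452-117969616, minus strand: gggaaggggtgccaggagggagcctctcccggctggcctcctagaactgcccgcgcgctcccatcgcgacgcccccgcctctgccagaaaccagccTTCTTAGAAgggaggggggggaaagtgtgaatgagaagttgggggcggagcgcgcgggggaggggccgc

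An annotated exon already covers the far end of the Osmr window, which is not shown. Of the 9 members with a promoter entry, 1, Socs3, held the STAT motif in its window of 250 bases before and 50 after the start, against 9.55% of all 27025 genes with an entry. The AP-1 motif lay in the windows of 3 members, Lif, Osmr and Cntf, against 8.97% of all genes. These matches describe letters only, and the AP-1 motif was chosen after the sequences were seen.

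The ligand genes had their highest values in different conditions. Lif, which encodes the cytokine LIF, was at 0.409 FPKM without light, then 2.84 after 3 h, 1.05 after 24 h and 0.393 after 7 days. The 3 h value was thus the high one, 6.93-fold the control, and the 7-day value was back at the control level. On the scale of log2 of (FPKM + 1), used for all changes here, Lif was 1.44 higher at 3 h, 0.54 higher at 24 h and -0.02 from the control at 7 days. Its values rest on about 9, 61, 30 and 15 fragments, with counting errors of 33.1%, 12.8%, 18.2% and 25.5%. Lif passed the filter on low values only through the 3 h sample, since its mean over the other conditions was 0.618 FPKM.

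Clcf1 encodes cardiotrophin-like cytokine factor 1, which acts through the ciliary neurotrophic factor receptor. Its level was 0.903 FPKM without light, then 1.96 after 3 h, 2.39 after 24 h and 2.04 after 7 days. All 3 light samples were above the control, by 2.17-, 2.64- and 2.27-fold, and unlike Lif it still stood at 77.0% of its 24 h gain at 7 days. The log2 changes were 0.64, 0.83 and 0.68, below the threshold of 1 that was used to count a gene as higher or lower. With a pseudocount of 0.1 in place of 1 they were 1.04, 1.31 and 1.10.

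Cntf encodes ciliary neurotrophic factor, a glial survival factor released without a signal peptide. It was at 12.8 FPKM without light, then 10.98 after 3 h, 18.3 after 24 h and 13.5 after 7 days, which made it the most abundant of these ligand genes in every condition. The 24 h sample was the high one, at 1.44-fold the control (log2 change 0.49). The Cntf transcript level was 31.2 times that of Lif in the control and 3.87 times at 3 h. A RefSeq long non-coding transcript overlaps Cntf, and its neighbour Zfp91, at 34.5, 36.4, 35.5 and 32.5 FPKM, is far more abundant, so the assignment of fragments to Cntf is uncertain.

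**Figure D1:**
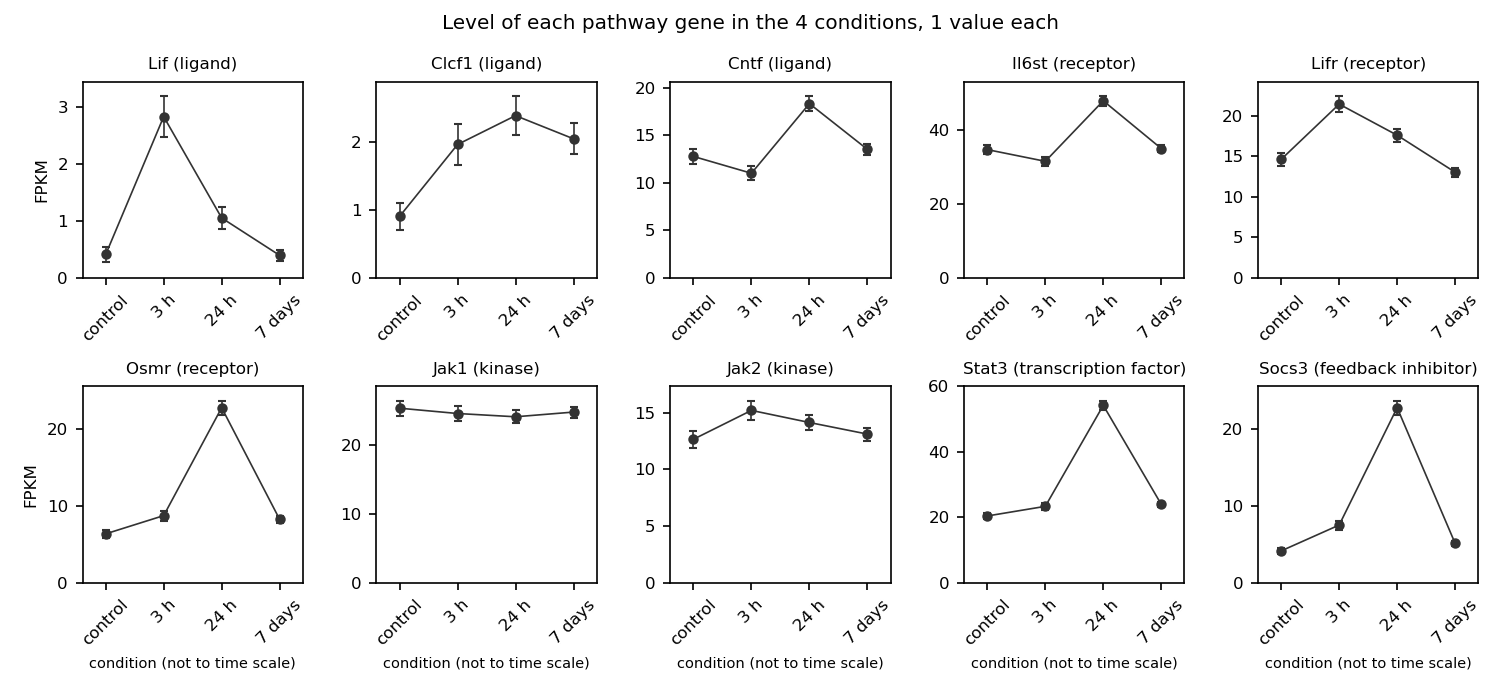
FPKM of each pathway gene (linear axes from 0) without light and 3 h, 24 h and 7 days after it, 1 point per condition, with bars for the approximate counting error. Lif is highest at 3 h (2.84 FPKM), whereas Osmr, Stat3 and Socs3 are highest at 24 h (22.7, 54.2 and 22.8 FPKM) and Jak1 stays between 24.0 and 25.3 FPKM.

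Among the receptor genes the largest change was in Osmr, the oncostatin M receptor subunit that pairs with gp130. It was at 6.33 FPKM without light, then 8.69 after 3 h, 22.7 after 24 h and 8.21 after 7 days. The 24 h sample stood apart from the other 3, at 3.59-fold the control and a log2 change of 1.69, the 46th highest of 14194 genes. At 7 days 11.5% of the gain remained. Counting error on Osmr was 8.41% in the control and 3.92% at 24 h.

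Il6st, which encodes gp130 itself, was at 34.7 FPKM without light, then 31.5 after 3 h, 47.9 after 24 h and 35.0 after 7 days. It had the same high sample as Osmr but a smaller difference, 1.38-fold and a log2 change of 0.45 at 24 h. Lifr, the partner receptor for LIF, CNTF and cardiotrophins, was at 14.6, 21.4, 17.6 and 13.0 FPKM in the same order. Its high sample was 3 h, at 1.47-fold the control (log2 change 0.52), and its 7-day value was the lowest of its 4.

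Because FPKM is scaled per length, the levels of the receptor genes can be set side by side. Il6st was the most abundant receptor member in all conditions. The Osmr level was 0.433 of the Lifr level in the control and 0.406 at 3 h, but 1.29 times the Lifr level at 24 h and 0.630 at 7 days. The order of the partner receptors was therefore inverted at 24 h alone. Osmr and Lifr neighbour each other on chromosome 15, and their highest values lay in different conditions.

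The kinase genes were the steadiest members. Jak1, the main kinase of gp130 signalling, was at 25.3 FPKM without light, then 24.5 after 3 h, 24.0 after 24 h and 24.7 after 7 days, a highest-to-lowest ratio of 1.05. That range is close to the approximate counting errors of 3.21% to 4.36%, and whether Jak1 differed between conditions was not tested. Jak2, a second gp130-associated kinase, was at 12.6, 15.2, 14.1 and 13.1 FPKM, with log2 changes of 0.25, 0.15 and 0.05 against the control. The 7-day difference turned to -0.06 after rescaling to equal sums without lens, muscle, blood and surface epithelium genes. The annotated 3′ end of Jak1 overlaps Raver2, which was at 8.02 to 10.5 FPKM. Long non-coding gene models also overlap Clcf1 and Stat3, and without a statement on strand their fragments cannot be told apart from those of these genes.

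Stat3, the transcription factor of the pathway, was at 20.4 FPKM without light, then 23.3 after 3 h, 54.2 after 24 h and 23.9 after 7 days. The 24 h level was 2.66-fold the control, a log2 change of 1.37 and the 62nd highest of 14194, while the changes in the other light samples were 0.19 and 0.22. At 24 h Stat3 was the most abundant of the 10 members, ahead of Il6st, whereas in the control Il6st and Jak1 were both above it. Of the 24 h gain, 8.70% had been reached at 3 h and 10.6% was left at 7 days. Stat5a, its neighbour on chromosome 11, was at 2.94, 2.33, 2.89 and 2.93 FPKM.

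Socs3, the suppressor that binds gp130 and the Janus kinases, had the largest log2 change of any member on the scale used here, whereas with a pseudocount of 0.1 its 24 h change (2.44) was below that of Lif at 3 h (2.53). It was at 4.13 FPKM without light, then 7.50 after 3 h, 22.8 after 24 h and 5.12 after 7 days. The 24 h sample was the highest, 5.53-fold the control with a log2 change of 2.22, and ranked 37th of 14194. The 3 h value was also above the control, 1.82-fold and 0.73 on the log2 scale, which 1.53% of all genes matched or exceeded in size in either direction. By 7 days 5.28% of the 24 h gain was left, a smaller share than for Stat3 or Osmr. The Socs3 level was 0.203 of the Stat3 level without light, then 0.322, 0.421 and 0.214 of it at the successive times.

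Counted together, 1 of the 10 members, Lif, was past the threshold upwards at 3 h, against 0.550% of all genes tested, and it passed the filter only through that sample. At 24 h it was 3 of 10, Osmr, Stat3 and Socs3, against 0.747%. At 7 days it was 0 of 10, against 0.409%, and 0 of 10 were past the threshold downwards at any time against the control, where 0.240%, 0.359% and 0.190% of all genes were. The median log2 change of the members was 0.33 at 3 h, 0.52 at 24 h and 0.06 at 7 days, beside medians over all genes of 0.02, 0.01 and 0.00. Above 0 were 7 of 10, 9 of 10 and 7 of 10 members, against 54.1%, 51.3% and 50.7% of all genes. With a pseudocount of 0.1 the numbers past the threshold upwards were 2, 5 and 1, since Clcf1 joined at every time and Lif at 24 h, and those of all genes were 107, 143 and 84 in place of 78, 106 and 58. These comparisons share the control sample.

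**Figure D2:**
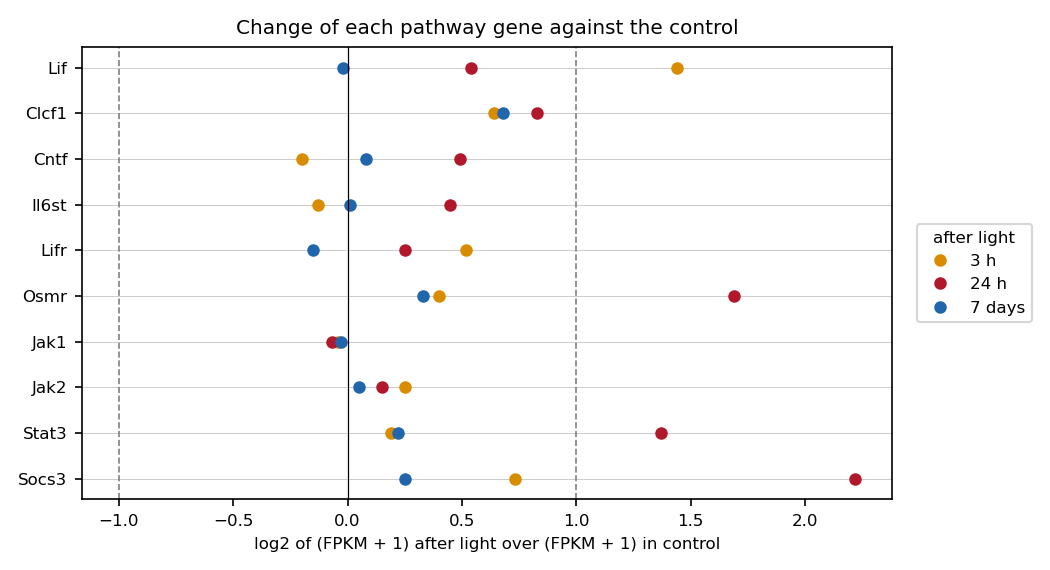
Change of each pathway gene against the control (x axis, log2 of (FPKM + 1) ratio) at 3 h, 24 h and 7 days, 1 point per time, with dashed lines at the threshold of 1 in either direction. Lif alone is past the line at 3 h (1.44), and Osmr, Stat3 and Socs3 are past it at 24 h (1.69, 1.37 and 2.22).

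**Figure D3:**
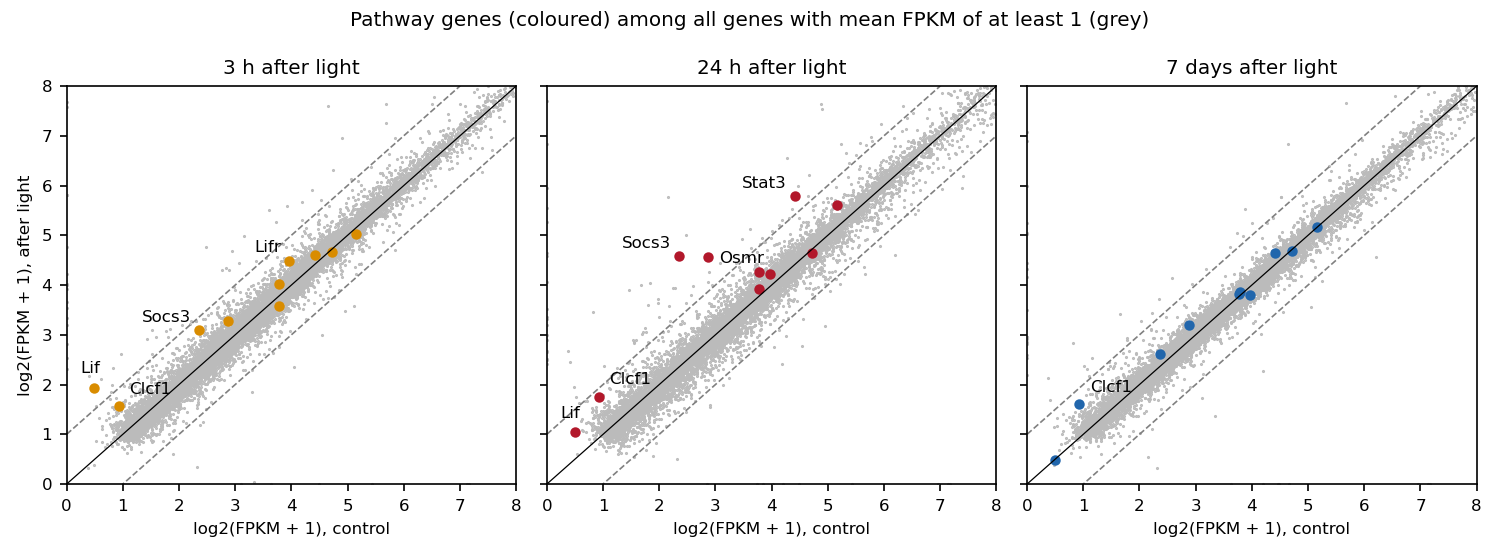
Level after light (y axis, log2 of FPKM + 1) against level in the control (x axis, same scale), 1 panel per time, shown up to 8 on both axes. Grey points are genes kept by the filter, coloured points the 10 members, and dashed lines mark a log2 change of 1. Most grey points lie between the dashed lines, with 0.550%, 0.747% and 0.409% of genes past the upper line, and Socs3, Osmr and Stat3 lie above it at 24 h.

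Successive light samples compared directly leave the control out. From 3 h to 24 h, Socs3 was 3.04-fold higher, Osmr 2.61-fold and Stat3 2.33-fold, so 3 of 10 members were past the threshold upwards, against 0.514% of all genes. Lif moved the other way, to 0.371 of its 3 h level, with a log2 change of -0.90 that became -1.35 with a pseudocount of 0.1. Downwards 0 of 10 members were past the threshold, against 0.437% of all genes. From 24 h to 7 days, the same 3 genes were past it downwards, against 0.514%, and 0 of 10 were past it upwards, against 0.296%. Socs3 was then at 0.224, Osmr at 0.361 and Stat3 at 0.442 of the 24 h level. The 9 members other than Jak1 were all lower at 7 days than at 24 h. The rescaling without lens, muscle, blood and surface epithelium genes lowered the log2 of every plain FPKM ratio to the control by 0.18 at 3 h and 0.11 at 7 days, and low genes by less on the log2 of (FPKM + 1) scale, where Lif went from 1.44 to 1.31 at 3 h. It turned the count of all genes past the threshold from 78 higher and 34 lower to 61 and 48 at 3 h, and from 73 and 62 to 89 and 47 between 3 h and 24 h, and moved no member across the threshold.

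The other ligands of the gp130 family were mostly low. Of the 9 reported, 1 passed the filter, Ctf1 (cardiotrophin 1), at 5.71, 5.97, 4.77 and 7.34 FPKM in the order of the conditions. It was highest at 7 days, by 0.31 log2 units, and was not past the threshold. The next most abundant, Ebi3, a subunit shared by interleukins of the family, went from 0.386 to 1.07 FPKM between the control and 7 days, and Il11, interleukin 11, was at most at 0.311 FPKM. Il6 was at 0.0296 to 0.0461 FPKM and Osm, the ligand of OSMR, at 0.0193 to 0.135 FPKM, near the value of a few fragments. Osm neighbours Lif on chromosome 11. Il27 was listed at 0 both without light and after 3 h, and had 0.716 FPKM after 24 h and 0.0941 after 7 days. Il6, Osm and Il27 were singled out after their values were seen.

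Of the 7 other receptor genes on the list, 4 passed the filter and 0 were past the threshold in any comparison with the control. With 0.550%, 0.747% and 0.409% of all genes past it upwards at 3 h, 24 h and 7 days, a count of 0 in a list this short is near the background. Il11ra1, a receptor for interleukin 11, was the most abundant of these at 27.8, 26.9, 25.3 and 30.6 FPKM. Cntfr, the membrane-anchored receptor that binds CNTF and CLCF1, was at 9.36, 13.8, 10.3 and 12.2 FPKM, highest at 3 h like Lifr. Lepr, the leptin receptor, was at 2.30, 1.83, 1.59 and 1.81 FPKM.

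Among the 7 other JAK and STAT genes reported, 6 passed the filter and 1, Jak3, was past the threshold upwards at 24 h, against 0.747% of all genes. Jak3, a kinase best known from lymphocyte cytokine receptors, was at 2.23, 2.09, 7.04 and 3.18 FPKM, with a change of 1.32. The remaining STAT genes that passed the filter had changes between -0.22 and 0.77 at 24 h, the highest being Stat2 (8.38, 7.86, 15.0 and 7.53 FPKM). Stat6 and Stat5b, the most abundant of these, stayed at 11.9 to 13.3 and 14.1 to 16.6 FPKM.

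Of the 18 other genes listed as inhibitors or regulators of the signal, all passed the filter. At no time were any past the threshold against the control, with medians of 0.01, 0.05 and -0.01. That count too is near the background, which was under 1% of all genes in each direction. The most abundant were Ptpn11 (35.5, 35.4, 36.7 and 35.6 FPKM), a phosphatase that carries the gp130 signal to the ERK kinases, Pias2, a ligase and STAT regulator, and Socs7 (24.3, 32.8, 23.9 and 21.3 FPKM). Within the suppressor family, the Socs3 level was 0.863 of the Socs1 level in the control and 4.06 times that level at 24 h. Against Socs2 the ratio went from 0.817 to 3.32. Cish, an inhibitor best known downstream of STAT5, came nearest to the threshold at 24 h with a change of 0.91 (3.15 and 6.78 FPKM) and was singled out for that after its values were seen.

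**Figure D4:**
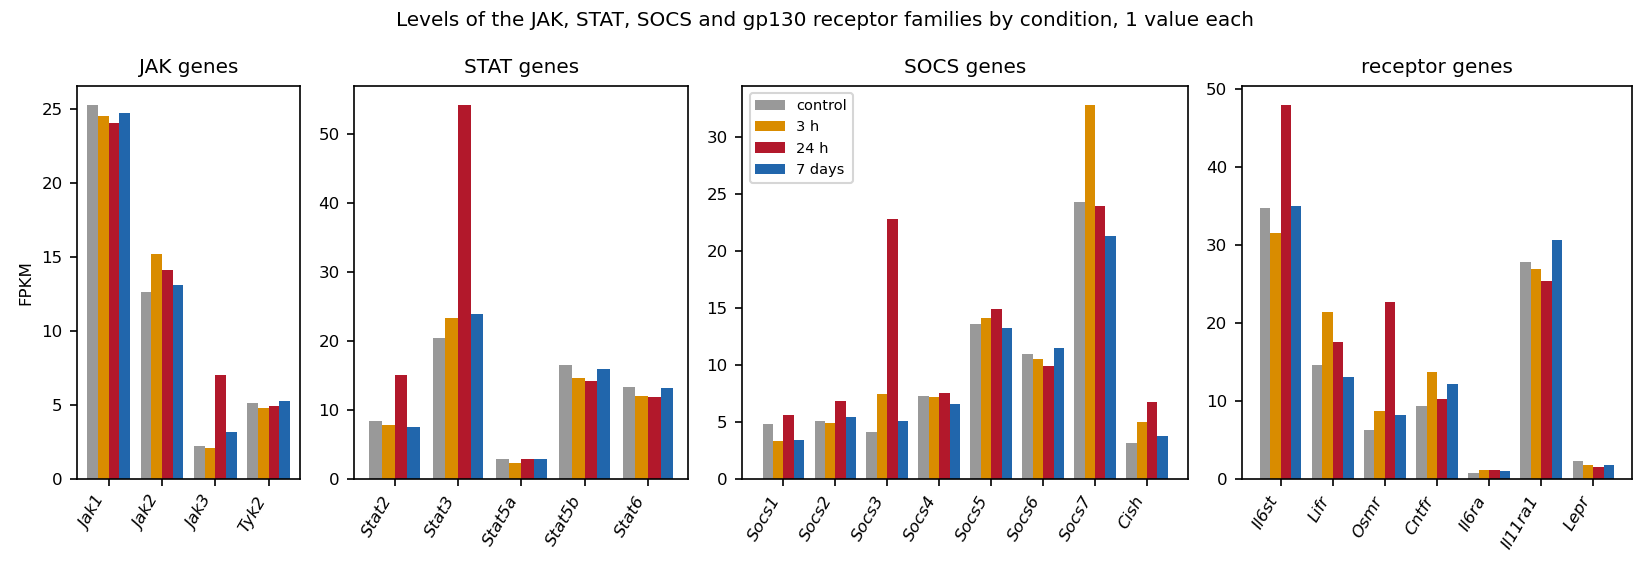
FPKM (bars from 0) of JAK, STAT, SOCS and gp130 receptor genes by condition, 1 value per bar, each panel with its own scale. Stat3 (54.2 FPKM), Jak3 (7.04), Socs3 (22.8) and Osmr (22.7) stand out at 24 h from their own other bars, while Jak1, Tyk2, Stat6 and Il11ra1 differ little.

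The ERK and PI3K arm, the other route downstream of gp130, had median changes close to 0. Of 13 listed genes reported here, 12 were found and passed the filter, and 0 were past the threshold at any time. With 0.550%, 0.747% and 0.409% of all genes past it upwards and fewer downwards, that count is near the background. The medians were 0.12, 0.12 and 0.10, beside 0.02, 0.01 and 0.00 over all genes. Akt1 was at 48.9 to 57.8 FPKM, Map2k1 at 48.9 to 52.2 FPKM and Map2k2 at 31.8 to 39.6 FPKM over the 4 conditions. The 3 genes furthest from the control at 3 h were feedback inhibitors of the ERK route, Spry4, Dusp6 and Spry2, with changes of 0.45, 0.42 and 0.41, and Spry2 was at -0.30 at 7 days. They were singled out after their values were seen.

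Known and proposed STAT3 target genes had their highest median in the 24 h sample. Of 32 listed genes 31 passed the filter. Past the threshold upwards were 6 at 3 h, 10 at 24 h and 1 at 7 days, beside 0.550%, 0.747% and 0.409% of all genes, and 0 were past it downwards. The median log2 change was 0.13, 0.61 and 0.24 at the successive times, and the 3 h median turned to -0.04 under the rescaling without lens, muscle, blood and surface epithelium genes. The list was drawn up with results of these data known and many of its genes answer to other factors too, so its direction is no independent evidence.

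The 6 targets past the threshold at 3 h were Cebpd, Fos, Tnfrsf12a, Hp, Cebpb and, right at it with 1.00, Lcn2. Hp, haptoglobin, passed the filter only through its 3 h value, since its mean over the other conditions was 0.975 FPKM. Fos, an AP-1 subunit, was at 14.2, 47.0, 24.9 and 10.05 FPKM. Cebpb, a transcription factor of the acute phase, was at 9.36, 21.3, 15.4 and 12.2 FPKM. Both had their high sample at 3 h, as Lif did. Tnfrsf12a, the receptor for the cytokine TWEAK, was at 7.41 FPKM in the control and 20.7 at both 3 h and 24 h. Cebpd was past the threshold at 3 h and at 24 h as well, with changes of 2.29 and 2.52.

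The 10 targets past the threshold at 24 h were Serpina3n, Edn2, Cebpd, Lcn2, Gfap, Timp1, Junb, Tnfrsf12a, Cp and Bcl3. Serpina3n had the largest change, 2.75, and Bcl3 the smallest, 1.28. Bcl3, an IκB-family co-regulator, was at 1.94, 1.49, 6.13 and 2.87 FPKM. Timp1, an inhibitor of metalloproteinases, was at 2.96, 3.23, 11.5 and 4.91 FPKM, and Cp, the iron oxidase ceruloplasmin, at 39.1, 42.8, 100.3 and 46.7 FPKM. These had a single high sample, 24 h, as Stat3 did. Edn2, an endothelin, was the target still past the threshold at 7 days, with 0.761, 0.688, 10.01 and 6.17 FPKM.

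Of the other listed targets, Fgf2, Vip, Fos, A2m and Cebpb came nearest to the threshold at 24 h, with changes of 0.83, 0.80, 0.77, 0.74 and 0.67. A2m, the protease inhibitor alpha-2-macroglobulin, was at 83.0, 60.7, 139.4 and 75.4 FPKM, high at 24 h and lowest at 3 h. Hspb1 and Hif1a, the most abundant of the list, had 24 h changes of 0.47 and -0.05. Pim1, Birc5 and Il4ra were below the control at 24 h with changes of -0.22, -0.28 and -0.33. The genes nearest to the threshold and those below the control were singled out after their values were seen. The STAT motif was found in the promoter windows of 3 of the 26 listed targets with an entry, Gfap, Icam1 and Steap4. They are shown with 10 bases on each side because their 24 h changes differ widely.
Gfap, chr11:102897184-102897212, minus strand: atgggggtgcTTCCAGGAAgtcaggggca
Icam1, chr9:21015888-21015916, plus strand: ggcgcgaggtTTCCCGGAAagtggccccg
Steap4, chr5:7960346-7960374, plus strand: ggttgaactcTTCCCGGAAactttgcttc

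Gfap, the intermediate filament of glia, had a change of 2.28 at 24 h, Steap4, a metalloreductase, 0.61, and Icam1, an adhesion molecule, -0.00. The capitals again mark TTCNNNGAA, and the share of these targets with the motif, 11.5%, was close to the 9.55% of all genes.

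**Figure D5:**
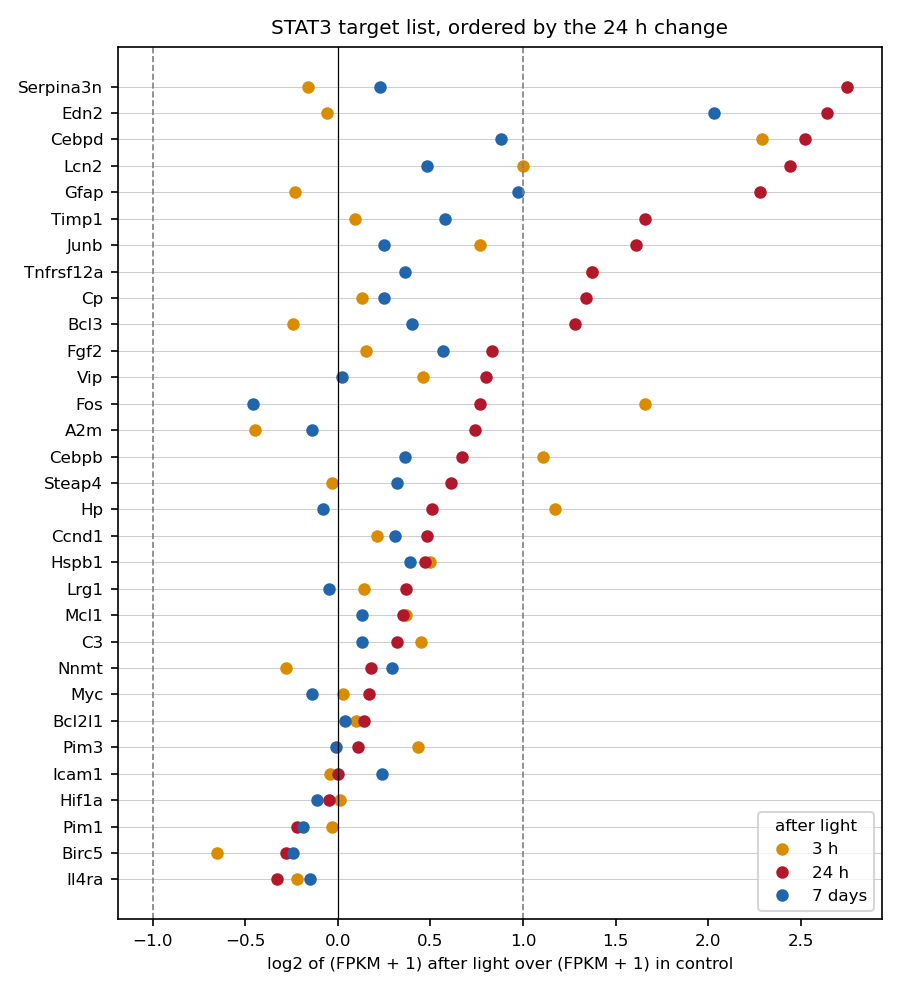
Change of the 31 STAT3 target list genes that passed the filter (log2 of (FPKM + 1) ratio to the control) at 3 h, 24 h and 7 days, ordered by the 24 h change, with dashed lines at the threshold. The 10 genes past the line at 24 h run from Serpina3n (2.75) to Bcl3 (1.28), and Edn2 (2.03) is past it at 7 days.

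Genes of the interferon response, a related JAK and STAT pathway, were counted apart. Of 15 listed genes 14 passed the filter, and 0 were past the threshold at 3 h, 1 at 24 h and 0 at 7 days upwards, against 0.550%, 0.747% and 0.409% of all genes, with medians of 0.11, 0.23 and 0.08. The 1 was Irf9, the partner of STAT2 in interferon signalling, at 13.6, 15.1, 28.3 and 14.1 FPKM (log2 change 1.01). The most abundant of the list, B2m and Isg15, had 24 h changes of 0.03 and -0.27, and Irf1 had 0.28.

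The genes most like 4 members were sought among 13553 protein-coding genes by the smallest Euclidean distance over the 3 log2 changes against the control. Nearest to Stat3 were Cp (distance 0.07), Aldh1l1 (0.08), Ch25h (0.09) and Dcps (0.12). Aldh1l1, an astrocyte folate enzyme, was at 6.38, 7.46, 18.2 and 8.10 FPKM. Nearest to Socs3 were Lcn2 (0.42), Atf3 (0.55), Junb (0.61) and the member Osmr (0.62). Nearest to Osmr were Lrrc2 (0.21), Klhl29 (0.37), Aldh1l1 (0.38) and Gadd45b (0.38). Nearest to Lif were Pck1 (0.09), Fabp4 (0.20), Cidec (0.25) and Hp (0.28). Pck1, an enzyme of gluconeogenesis that fat cells also use, was at 0.390, 2.65, 1.04 and 0.306 FPKM, and Fabp4, the fatty acid binding protein of adipocytes, at 12.2, 37.5, 20.3 and 13.0 FPKM. Cidec, a lipid droplet protein of adipocytes, was at 0.520, 3.31, 1.41 and 0.740 FPKM. Lif, Pck1, Cidec and Hp passed the filter only through their 3 h values, so a high 3 h sample was partly set by the filter. With 1 sample per condition such a likeness rests on 3 differences.

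Levels of markers of cell types that could hold these transcripts are given beside those of the members. In bulk RNA, fewer cells of a type and less RNA per cell cannot be told apart. All 13 Müller glia markers passed the filter, none was listed at 0, and their summed level was 2792 FPKM without light, then 2815 after 3 h, 2300 after 24 h and 3402 after 7 days. At 24 h, when Osmr, Stat3 and Socs3 were high, 4 of these 13 were above the control, against 51.3% of all genes. The median change of these 13 markers was -0.17. Past the threshold downwards was 1, Spc25, at -1.60, against 0.359% of all genes. Apoe, the most abundant, was at 873 and 778 FPKM, with Glul at 769 and 395 FPKM and Vim at 326 and 457 FPKM. The 6 astrocyte markers summed to 193.7, 186.5, 267.6 and 218.8 FPKM, with a median change of 0.00 at 24 h over the 5 that passed the filter. Of these Gfap and Aldh1l1 were past the threshold at 24 h, against 0.747% of all genes, while S100b, Gja1 and Slc1a2 had changes of 0.00, -0.19 and -0.05. Gfap, which is also on the target list, went from 18.3 to 93.0 FPKM, a difference about as large as that of the whole sum, and Pax2 was at most at 0.0689 FPKM. The 12 rod markers had medians of -0.25, -0.70 and -0.59. Below the control were 11 of 12 at 24 h and all 12 at 7 days, beside 51.3% and 50.7% of all genes above it. The part of these markers in the members' differences was not tested.

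At 3 h, when Lif was high, the 12 surface epithelium markers summed to 3873 FPKM against 3076 in the control, with 11 of 12 above 0 against 54.1% of all genes. Krt14 and Krt16 were past the threshold upwards, 2 of 12 against 0.550%, and Krt16 passed the filter only with its 3 h value, its mean over the other conditions being 0.824 FPKM. The 9 adipocyte markers, a list drawn up after the genes nearest to Lif were seen, summed to 35.9 FPKM without light, then 86.3 after 3 h, 50.3 after 24 h and 33.95 after 7 days. Of the 8 that passed the filter all were above the control at 3 h, against 54.1% of all genes, with a median change of 0.87. The 3 past the threshold, against 0.550% of all genes, were Fabp4, Cidec and Cfd, with Cidec passing the filter only through the 3 h sample. Adipoq, the adipocyte hormone adiponectin, was at 1.18, 3.02, 1.63 and 0.805 FPKM, while Retn and Lipe changed by 0.08 and 0.13 at 3 h. Because Fabp4 and Cidec were seen near Lif before this list was made, its high 3 h sample is no independent likeness to Lif. The 12 connective tissue markers summed to 1548 FPKM against 2170, with 4 of 12, Col1a1, Col3a1, Col5a1 and Eln, past the threshold downwards, against 0.240% of all genes. The 10 endothelial markers were all below the control, with a median of -0.43, while 54.1% of all genes were above it. The part of these lists in the difference in Lif was not tested either. The 16 microglia and macrophage markers summed to 131.3 FPKM without light, then 144.6 after 3 h, 140.5 after 24 h and 291.3 after 7 days. In that last sample 0 of 10 members were past the threshold upwards, against 0.409% of all genes, a count near the background. The part of these markers in the members' levels was not tested. The 6 neutrophil markers found summed to 3.94, 4.55, 7.23 and 10.5 FPKM, of which S100a8 and S100a9, the 2 that passed the filter, went from 1.14 to 3.49 and from 1.22 to 4.80 FPKM between the control and 7 days. Cxcr2 was at 0.949 and 0.951 FPKM in these samples, and Mpo had 0 without light and after 3 h. Skeletal muscle markers had a median of -0.66 at 24 h, with 17 of 18 below the control, while 51.3% of all genes were above it.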

How the data were processed

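RNA labelled as whole eye of 4 conditions was analysed, with 1 sample each (labelled as eyes of 3 mice). The deposited values are FPKM, made by the authors with bcl2fastq 1.8.3, TopHat2 (version 2) and Cuffdiff 2.2.1 on mm9, per the submitters' processing notes. The annotation, strand, library scaling and whether a value is a pool or a mean are not stated there. A total of FPKM differs between conditions (626973 to 680305), so a few abundant transcripts can shift all others.

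Changes are log2 of (FPKM + 1) ratios, which understate low genes. Plain folds are FPKM ratios. Genes with a mean of at least 1 FPKM were kept, and a gene was counted at an absolute change of at least 1. No test was possible. By rule, the genes to name were all 10 members, genes of the pathway lists past the threshold or among the 3 most abundant, up to 3 of the most abundant of a cell type list, and the 4 genes nearest to Lif, Osmr, Stat3 and Socs3. Other named genes, neighbours and overlapping genes apart, were chosen after their values were seen, and the adipocyte list was added then. The members and lists were chosen with earlier results of these data known. A few listed genes are not reported here and were left out of the list counts. Alternatives tried were another pseudocount (0.1), a filter at a mean of 5 or none, 3 rescalings, and protein-coding genes alone, the last added after seeing the data. Gene classes came from RefSeq GRCm38.p6 (22327 symbols, 99.0%, matched) and exons from GENCODE of the same assembly. Python 3.11.15, numpy 2.4.6, pandas 2.3.3 and matplotlib 3.10.9 were used.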

Additional observations from a re-analysis of the deposited data

Results flagged for a closer look

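In 3 members the change against the control had opposite signs at different times, each at least 0.1 log2 units, and none of these differences was tested. Cntf had -0.20 at 3 h and 0.49 at 24 h, Il6st had -0.13 at 3 h and 0.45 at 24 h, and Lifr had 0.52 at 3 h and -0.15 at 7 days. The comparisons share the control, and the signs given were the same under every rescaling tried.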

How the results depend on the processing

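Of 290 recomputed member changes, 276 kept their sign and their side of the threshold, 6 (of Clcf1 and Lif, with a pseudocount of 0.1) newly passed it, 8 small ones changed sign on rescaling, and no change past the threshold was lost or changed sign, though Lif is not counted at a mean of at least 5. The 8 were Cntf, Il6st (under 2 rescalings) and Jak2 at 7 days against the control, Jak1 (under 2 rescalings) and Jak2 at 24 h against 3 h, and Jak1 at 7 days against 24 h. With a pseudocount of 0.1, members higher than the control numbered 2 in place of 1 at 3 h, 5 in place of 3 at 24 h and 1 in place of 0 at 7 days, 1 in place of 0 was lower at 24 h than at 3 h, and 4 in place of 3 were lower at 7 days than at 24 h. All genes lower then numbered 54 in place of 34 at 3 h, 92 in place of 51 at 24 h, and 99 in place of 62 at 24 h against 3 h, and 73 in place of 42 were higher at 7 days than at 24 h. With a mean of at least 5, 0 members were higher at 3 h and 38 in place of 58 genes at 7 days. Protein-coding genes alone, split into higher and lower, gave 37 and 15 after 3 h, 60 and 29 after 24 h, 24 and 7 after 7 days, 45 and 32 for 24 h against 3 h, and 15 and 44 for 7 days against 24 h. No paired analysis was possible because each condition has 1 value. Depth limits Lif and Clcf1 most, with about 9 and 20 fragments in the control.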
